A study of Bos indicus with 9 samples.

Results

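Of the 40104 muscle peaks, 28554 lay on chromosomes 1 to 29 at a start of at least 1 Mb, and 442 of these overlapped a liver peak by at least 1 bp and no hypothalamus peak. These 442 regions, 1.55% of the muscle peaks within those limits, were open in muscle and liver and were not called in hypothalamus. They were selected on the deposited peaks of all 3 tissues, so their presence in 2 lists and absence from the third is the selection and not a result, and no test was made on it. The data were ATAC-seq peak lists, which mark stretches of DNA that a transposase can reach, from frozen liver, muscle and hypothalamus of 3 unrelated post-pubertal Brahman heifers (Bos indicus), each heifer giving all 3 tissues. Each tissue had 1 consensus list over its 3 heifers on ARS-UCD1.2, with 22291 liver and 78528 hypothalamus peaks beside the muscle list. No value for a single heifer was in the lists, so the spread between animals and the read depth behind a peak cannot be read from them, and all intervals cover counting error only.

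Accessible DNA marks promoters and enhancers, where nucleosomes have been displaced and transcription factors can bind. Promoters of widely used genes tend to be open in many tissues, whereas distal elements differ more between cell types. Muscle and liver share tasks in fuel storage and use, and both also hold blood vessels, connective tissue and resident or circulating immune cells. Bulk tissue was used, so fewer cells of a type and less accessibility per cell cannot be told apart.

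The edges of the selection were as follows. The region nearest to a hypothalamus peak, at chr27:6327890-6328307, lay 64 bp from it, whereas the smallest hypothalamus overlap that kept a muscle peak with a liver peak out was 93 bp, at chr16:7178742-7179214. The smallest liver overlap among the 442 was 42 bp, at chr9:87071708-87072385. The closest muscle peak that just missed a liver peak, at chr10:25160796-25161504, lay 62 bp from it. The lowest start taken was chr25:1502719, and the highest start under 1 Mb that met the other conditions was chr21:734756. In 20 of the 442 the overlapping liver peak, though not the muscle peak, itself touched a hypothalamus peak.

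The regions were weak peaks in both tissues. The summit significance, the −log10 p at the highest point of a peak as combined by the authors over the heifers, ranged from 2.93 to 9.28 in muscle with a median of 4.02 (95% order-statistic interval 3.93 to 4.13). In liver it ranged from 2.85 to 14.9 with a median of 3.96 (3.87 to 4.06), taking the strongest overlapping liver peak of each region. Values were not scaled between tissues, so muscle and liver are set beside each other as percentiles of their own lists, and raw summits are given side by side. The median percentiles were 18.3 in muscle and 18.5 in liver. In 335 of 442 regions neither summit reached 5, and in 20 both did (4.52%, Wilson 95% interval 2.95 to 6.89).

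Muscle peaks within the same limits that were open in all 3 tissues had a median summit of 7.68 (n = 8420), those open in muscle alone 4.55 (n = 10681), and those open in muscle and hypothalamus without liver 4.65 (n = 9011). Among peaks overlapping liver, the 442 were 4.99% of 8862. Seen from liver, 427 of 10465 liver peaks within the limits (4.08%) overlapped muscle and no hypothalamus peak, with a median summit of 3.89. The median was 4.81 for the 8729 liver peaks open in all 3 tissues and 3.74 for the 632 open in liver alone. The regions were thus the weakest of the 4 muscle classes by median, but not of the liver classes. As the summits come from the same lists that formed the classes, these medians are a description.

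**Figure D1:**
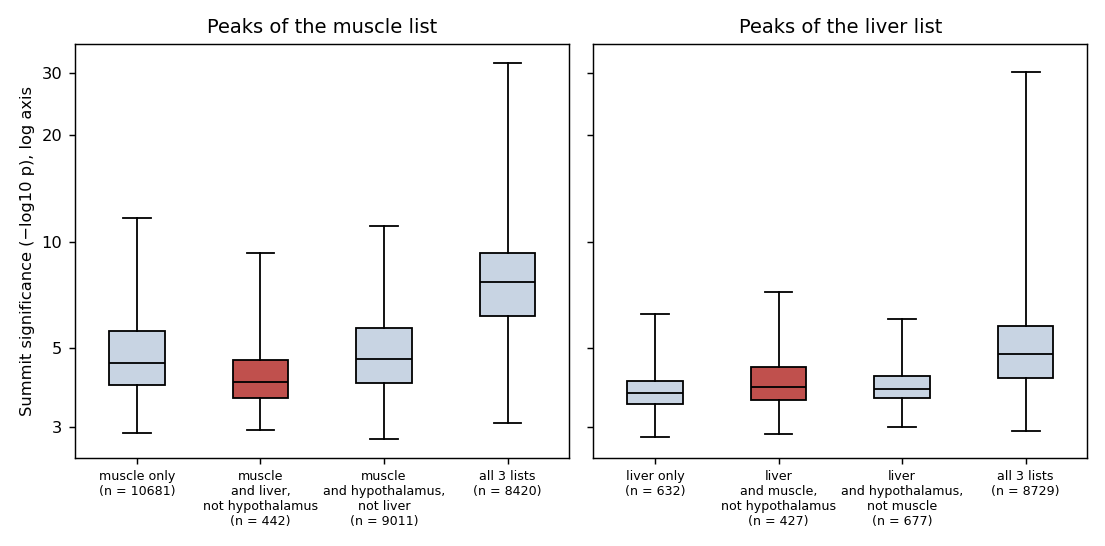
Summit significance (−log10 p, log axis) by overlap class, for peaks of the muscle list (left) and the liver list (right) on chromosomes 1 to 29 from 1 Mb. Boxes show the quartiles with the median as a line, whiskers the lowest and highest peak, and red the class shared by muscle and liver without hypothalamus, whose medians are 4.02 in muscle and 3.89 in liver.

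The area was also low, whereas the length was not the shortest. The area under the curve (AUC), the authors' sum of significance over a peak, had a median of 351 in muscle (range 201 to 5757) and 375 in liver (range 200.3 to 53757). The peaks were 475 bp long at the median in muscle (110 to 2456 bp) and 491 bp in liver (110 to 9810 bp). Median AUC was 461 for peaks of muscle alone, 513 for muscle and hypothalamus, and 1815 for all 3 tissues. Median lengths in those classes were 403, 484 and 854 bp, so the regions were longer than peaks of muscle alone. In liver the 427 shared peaks had a median length of 457 bp, against 373 bp in liver alone and 355 bp in liver and hypothalamus.

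In 430 of 442 regions (97.3%) the muscle and liver peaks shared at least 50% of the shorter peak, and in 263 (59.5%) one lay entirely inside the other. Both shares were higher among muscle peaks open in all 3 tissues, at 99.7% and 79.0%. Matching edges were the exception. Both pairs of edges matched within 10 bp in 52 regions (11.8%, Wilson interval 9.09 to 15.1), against 204 of 8420 muscle peaks open in all 3 tissues (2.42%, 2.12 to 2.77). The summits were farther apart than in that class, at a median of 60 bp against 32 bp. Across the 442 regions the summit values of muscle and liver had a Pearson's r of 0.20 and a Spearman's rho of 0.37, against 0.70 and 0.68 across the peaks open in all 3 tissues. These correlations are across regions that share libraries and are not independent replicates. The 442 also had a narrower range, with muscle summit quartiles of 3.61 to 4.63 against 6.16 to 9.27. The part of that range in the lower correlations was not tested.

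**Figure D2:**
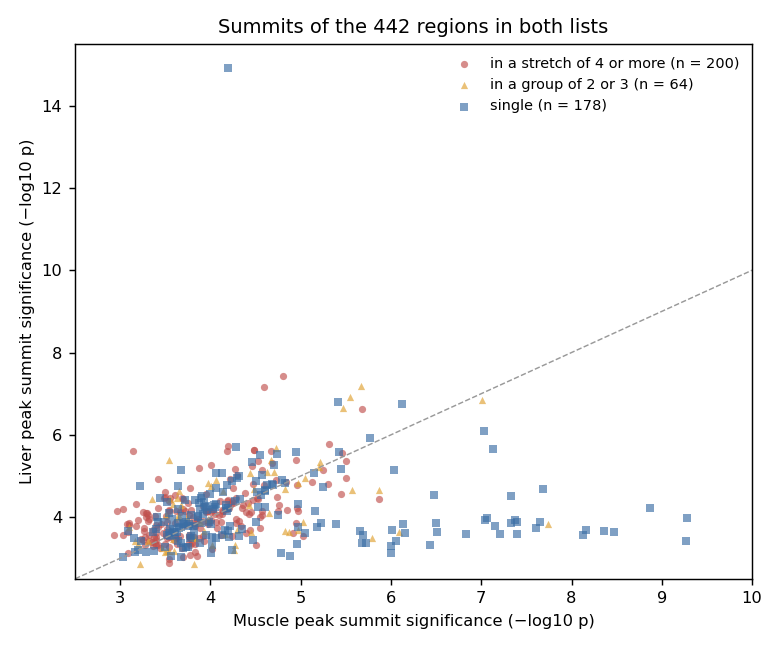
Summit significance (−log10 p) of each of the 442 regions in muscle (x axis) and in its strongest overlapping liver peak (y axis), with the dashed line marking equal values. Most points lie below 5 on both axes, a band of mostly single regions runs along the muscle axis to 9.28 at liver values near 4, and 1 single region stands at 14.9 in liver.

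By percentile within each list, the liver peak ranked above the muscle peak in 263 of 442 regions (59.5%, Wilson interval 54.9 to 64.0). The median difference was 2.74 percentile points, with liver higher. This count depended on the measure, falling to 51.4% when ranked by AUC per bp. With equal numbers of peaks per list it was 14.9% of 718 regions, of which 39 were among the 442. That setting removed weak muscle peaks but no liver peak on the chromosomes used, and percentiles remained those of the whole lists. It therefore lowers the liver share by construction and cannot say which tissue ranked higher.

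A small set of regions was strong in muscle and faint in liver. The muscle summit was at least 7 in 23 regions, and in 20 of these the liver summit was under 5. Of the 23, 21 had no other region within 50 kb. None lay in a stretch of 4 or more regions. The strongest muscle summit, 9.28 against 3.99 in liver, was at chr4:5334875-5335831, an intergenic peak 23.8 kb from the start site of DDC, which encodes dopa decarboxylase, an enzyme of dopamine and serotonin synthesis. The region with the largest muscle AUC, at chr17:62581630-62583935, was 2306 bp long in muscle with a summit of 9.27 and an AUC of 5757. Its liver peak was 354 bp long with a summit of 3.43 and an AUC of 240, and a hypothalamus peak lay 594 bp away. It also had the widest percentile gap in favour of muscle (84.6 points), and no gene was named for it in the annotation used here.

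The second-largest muscle AUC, 2847 against 209 in liver, was at chr2:121777652-121778692, 29.3 kb from the start site of PTP4A2, a protein tyrosine phosphatase. The next by AUC, at chr18:57303423-57305878 and chr18:57222390-57224607, belonged to the longest stretch described below. The other regions most above liver by percentile were at chr9:83102732-83103253 (summit 8.47 against 3.63), chr22:49757119-49757682 (8.13 against 3.55), chr6:37282787-37283257 (8.36 against 3.67) and chr1:134687854-134688397 (8.16 against 3.68). The last was 135 kb from the start site of EPHB1, an ephrin receptor, and the other 3 had no named gene. All 4 stood above percentile 82 in muscle and below percentile 10 in liver. Among the remaining strong muscle regions, named after their values were seen, 1 lay 30.3 kb from CYCS, which encodes cytochrome c of the respiratory chain (summits 7.21 and 3.6). Another lay 9.05 kb from SERTAD1 (7.16 and 3.78).

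The liver summit was at least 7 in 4 regions, although the lists were not scaled to each other. Of these 4, 1 with MMUT as its nearest gene was also among the strongest in both tissues. At chr21:2079571-2079905 a muscle peak of 335 bp with a summit of 4.19 and an AUC of 317 overlapped a liver peak of 9810 bp with a summit of 14.9 and an AUC of 53757. The muscle peak sat in a gap between 2 hypothalamus peaks. One, 99 bp away, had a summit of 11.5. The other, with a summit of 13.9 and a length of 8874 bp, lay entirely inside the liver peak. The liver values there thus cover DNA also called in hypothalamus. The nearest start site was that of SNURF, in the imprinted SNRPN locus, 142 kb away. At chr8:23196519-23196705, 0.948 kb from the start site of IFNB3, an interferon beta gene, the summits were 4.59 in muscle and 7.16 in liver and the AUC was 232 against 6081. That liver peak contained a whole hypothalamus peak of 1624 bp.

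The other regions with the largest liver AUC had liver peaks of 1942 to 4102 bp over muscle peaks of 158 to 1114 bp. Each of these liver peaks contained a whole hypothalamus peak, of 737 to 1448 bp. Their liver AUC therefore covers DNA also called in hypothalamus. At chr15:84946901-84947058 the AUC was 348 in muscle and 4553 in liver. The nearest gene there was the olfactory receptor gene LOC788572, with its start site 556 kb away. At chr5:48518728-48519525, 94.9 kb from the start site of LEMD3, an inner nuclear membrane protein gene, the AUC was 996 in muscle and 4571 in liver. A hypothalamus peak lay 0.916 kb from the muscle peak there. At chr4:105619781-105620894 it was 1538 in muscle and 5187 in liver. By percentile, liver led most at chr21:2079571, then at chr27:6290618-6291079, 35.6 kb from the beta-defensin gene DEFB13 (summits 3.15 and 5.61). The liver peak at the latter also contained a whole hypothalamus peak, of 676 bp. A region annotated as exonic followed, at chr2:89168910-89169200, with AOX1 as nearest gene and summits of 3.54 and 5.39. AOX1 encodes aldehyde oxidase, an enzyme of drug and aldehyde oxidation that is abundant in liver. The IFNB3 region and an exonic region with KIR3DS1 as nearest gene (3.42 and 4.93) completed the 5 regions most above in liver.

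Few regions had a high summit in both tissues. The highest lower summit was at chr3:18505275-18505476, with 7.01 in muscle and 6.86 in liver, 139 kb from TCHHL1 and 192 kb from any hypothalamus peak. It was 202 bp long in muscle and 215 bp in liver. The next was at chr1:46397584-46398375 (6.13 and 6.74), 207 kb from NFKBIZ, a nuclear regulator of NF-kB signalling. The third was at chr21:8750879-8751007 (7.03 and 6.10), 1.92 kb from the start site of ARRDC4, an arrestin-domain gene. A further region of 112 bp, at chr21:8840364-8840475, was 91.4 kb from ARRDC4 with summits of 7.13 and 5.66 and identical edges in both lists.

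The other 6 of the 10 regions with the highest lower summit had muscle summits from 5.46 to 5.76 and liver summits from 5.55 to 7.19. Their nearest genes were CASC4, SLC10A6, MMUT, ODF3L1, LOC100271685 and LOC788572. The start site was 188 kb away for ODF3L1 and 557 kb away for LOC788572, against 10.3 to 18.5 kb for CASC4, SLC10A6 and LOC100271685. MMUT encodes methylmalonyl-CoA mutase of propionate metabolism, but its start site was 469 kb from the region. The annotation places SLC10A6 on chromosome 11, whereas the RefSeq table of another Bos indicus assembly has it on a different chromosome, so that name is uncertain. Of these 10 regions, 8 were at most 255 bp long in muscle, and all 10 had a liver peak without a taurine counterpart in the sense given below. Over all 442, 47 were under 200 bp, and in 28 of these 47 both edges matched within 10 bp.

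The regions were unevenly spread over the chromosomes. Chromosomes 18, 4 and 27 held 69, 34 and 33 of them, 30.8% of the total against 9.77% of the muscle peaks within the limits. On chromosome 27 they were 7.45% of the muscle peaks (Wilson interval 5.35 to 10.3), and on chromosome 18 they were 4.77% (3.79 to 6.0). The share on the 29 chromosomes ran from 0.227% on chromosome 25 to that of chromosome 27, with a median of 1.36%.

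**Figure D3:**
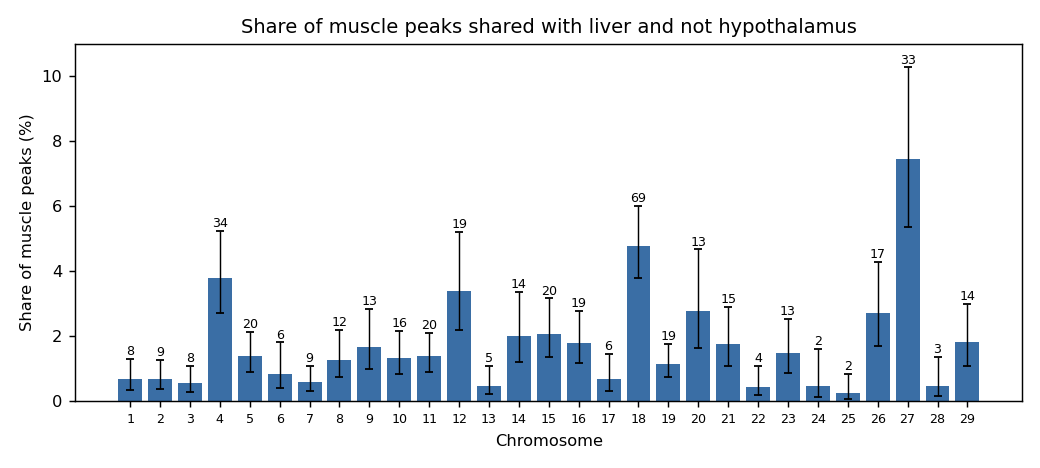
Share of the muscle peaks of each chromosome that overlapped liver and not hypothalamus (bars, %), with Wilson 95% intervals as error bars and the number of regions above each bar. Chromosome 27 reaches 7.45% and chromosome 18 reaches 4.77%, whereas the median chromosome is at 1.36%.

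Many of the regions lay in runs. With at most 50 kb between neighbours, 200 of the 442 (45.2%, Wilson interval 40.7 to 49.9) lay in 22 stretches of at least 4 regions, 64 in groups of 2 or 3, and 178 were single. The 5 stretches with most regions held 99. Outside the stretches chromosome 18 kept 7 regions, chromosome 27 kept 5 and chromosome 4 kept 14. These were 0.506%, 1.2% and 1.59% of their remaining muscle peaks, against a median of 0.686% over the chromosomes, so chromosomes 4 and 27 stayed above the median. The 22 stretches together spanned 1077 kb and held 303 muscle, 344 liver and 91 hypothalamus peaks. That is 30.03 hypothalamus peaks per 100 muscle peaks, against 239 per 100 within the limits as a whole, although the choice of regions without hypothalamus overlap lowers the former. In 5 stretches no hypothalamus peak was called at all. Regions in stretches had a lower median muscle summit than single ones (3.85 against 4.19) but a higher median liver summit (4.03 against 3.88) and liver AUC (488 against 320). Their liver peaks were also longer, with a median of 751 bp against 353 bp. These liver medians count a liver peak once for each region it was assigned to. In 53 of the 442 regions the liver peak overlapped several muscle peaks.

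**Figure D4:**
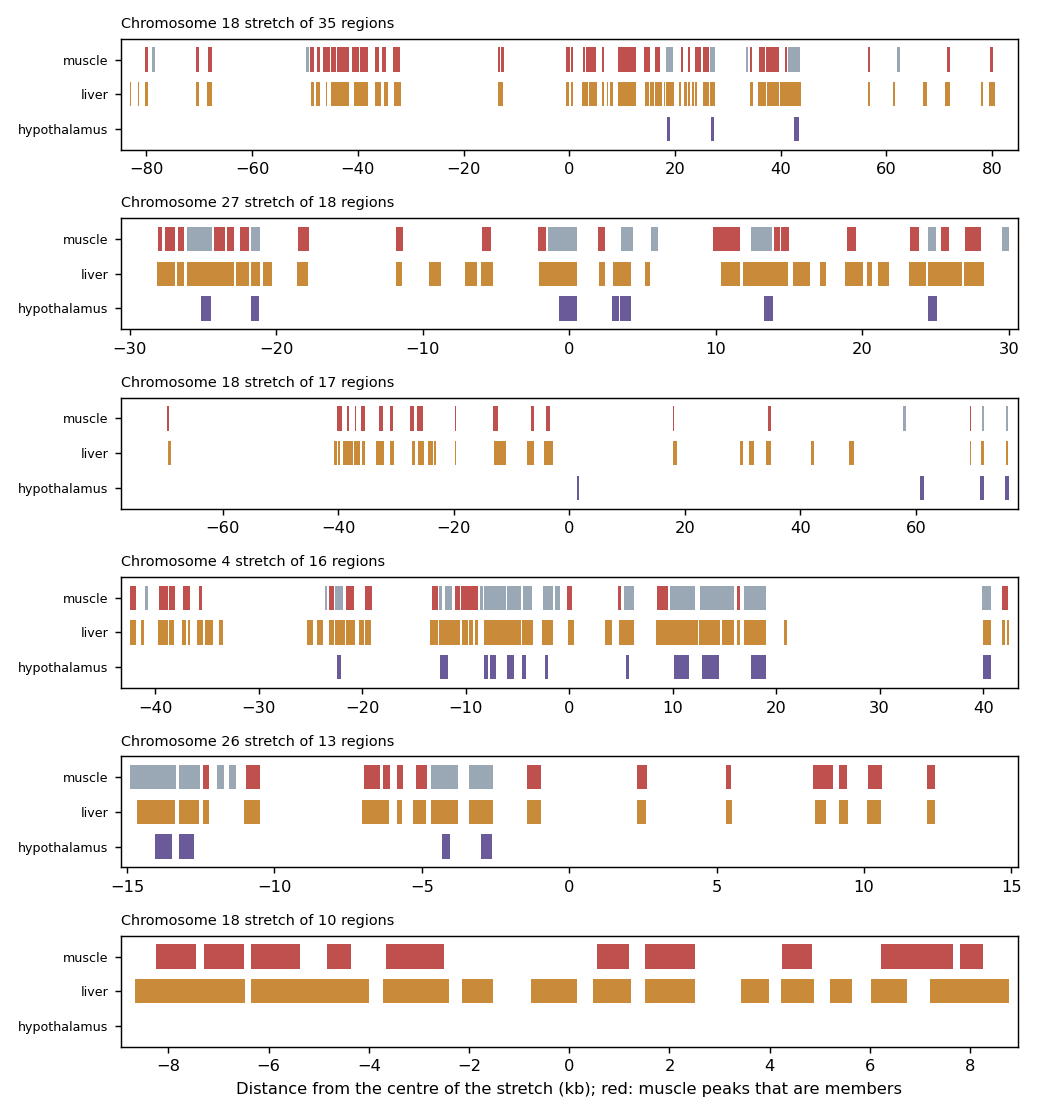
Peaks of each list along the 6 stretches with most regions, drawn to scale as distance from the centre of the stretch (kb), with the 442 regions in red and other muscle peaks in grey. The stretches span 16.5 to 160 kb. Overlap of the red peaks with liver and not hypothalamus is the selection, which also lowers the hypothalamus counts. Hypothalamus peaks number from 0 in the chromosome 18 stretch of 10 regions to 12 in the chromosome 4 stretch of 16.

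The largest stretch, chr18:57186064-57346418, held 35 regions among 42 muscle, 42 liver and 3 hypothalamus peaks. Muscle summits there ran from 3.26 to 5.31 and liver summits from 3.06 to 4.81. Of its annotated regions, 19 were intronic with LOC100336984, named zinc finger protein 331, as nearest gene. For 10 the nearest gene was LOC100138951, a CD33 antigen-like gene. CD33 is a sialic acid-binding receptor of myeloid cells. The second, chr27:6285882-6342003, held 18 regions with liver summits from 3.81 to 5.63 and muscle summits from 3.15 to 4.68. The nearest gene of its 11 annotated regions was DEFB13, a beta-defensin, one of a family of small antimicrobial peptides. In 16 of the 18 the liver percentile was above that of muscle.

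The stretch at chr18:50624672-50763910 held 17 regions among 18 muscle and 24 liver peaks, with 2 hypothalamus peaks. The nearest gene was DMAC2, a mitochondrial complex I assembly gene, for 11 of them. For 2 it was CEACAM1, a cell adhesion receptor of epithelial and immune cells. At chr4:105568946-105653751, all 16 regions had as nearest gene LOC780933, cationic trypsin. In mammals, trypsinogen genes lie within the T cell receptor beta locus. Here 12 of the 32 muscle peaks were open in all 3 tissues, so regions of the class alternated with shared ones. The fifth, chr26:42416010-42440834, held 13 regions with the microRNA gene MIR10225B as the nearest gene, with muscle summits from 3.19 to 4.95 and liver summits from 3.64 to 4.79.

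Smaller stretches, named after their values were seen, also lay by multigene families of immunity. All 10 muscle peaks of chr18:62657282-62673789 belonged to the class and were annotated as exonic or intronic. Their nearest genes were KIR3DS1 and KIR3DL2, killer cell immunoglobulin-like receptors of natural killer and T cells. No hypothalamus peak lay there, against 12 liver peaks. A further beta-defensin stretch, chr27:6913948-6921935, had 6 regions that were all the muscle peaks in its 7.99 kb. All were annotated as intronic with DEFB as nearest gene, and likewise no hypothalamus peak was called. At chr9:87050055-87072385 and chr9:87176544-87244225, 4 regions each lay by ULBP21, ULBP17 and RAET1G, which encode ligands of the activating receptor NKG2D. At chr5:102753125-102801552, the nearest genes of the 2 annotated regions of 6 were WC1 and WC1.3, scavenger receptors of ruminant gamma delta T cells, where 13 liver peaks and no hypothalamus peak were called.

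Further stretches, also named after their values were seen, lay by other genes. On chromosome 12, 9 regions at chr12:72653780-72699620 and 6 at chr12:72804175-72833449 had CLDN10, a claudin of tight junctions, as the only named nearest gene, with muscle summits up to 4.44 and liver summits up to 4.2. At chr16:54403827-54443433, 9 regions by C16H1orf158 had muscle summits from 3.09 to 5.12 and liver summits from 3.12 to 5.61. The 9 regions by BTBD17 at chr19:57060422-57082426 had muscle summits from 3.36 to 5.02 and liver summits from 3.29 to 4.48, and muscle had the higher percentile in 6 of them. At chr23:26719501-26744156, 7 of the 8 muscle peaks belonged to the class, with no hypothalamus peak, and NOTCH4, an endothelial Notch receptor gene, was the nearest gene of 6. Muscle summits there did not exceed 4.13. At chr4:31153039-31157822, 4 regions had as nearest gene IL6, the inflammatory cytokine, but lay 297 to 301 kb from its start site, with muscle summits from 4.06 to 4.73 and liver summits from 3.88 to 5.24. The stretch by SLC10A6 at chr11:26481690-26504468 had the highest median muscle summit of the 22, 5.50, with 5.37 in liver over 5 regions. It also held 13 muscle peaks open in all 3 tissues and 16 hypothalamus peaks. The remaining stretches, on chromosomes 14, 15 and 27, held 4 to 6 regions each, with muscle summits from 3.08 to 5.46 and liver summits from 3.07 to 7.42.

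At chr8:23179807-23207161 the liver percentile was above that of muscle in all 4 regions near IFNB3. Muscle summits ran from 4.0 to 4.84 and liver summits from 4.84 to 7.16. At chr22:51595739-51597466 and chr22:51601678-51602702 a pair of regions lay at the promoters of CATHL4 and CATHL1, cathelicidin antimicrobial peptides, with muscle summits of 4.30 and 4.27 and liver summits of 3.68 and 3.32. Here the muscle percentile was the higher in both.

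Of the 331 regions with a named gene, 87 had as nearest gene a member of 10 families, most but not all of them immune, counted as beta-defensin (23), trypsin (16), KIR (11), CD33-like (10), ULBP and RAET1 (8), olfactory receptor (7), WC1 (4), interferon (4), CEACAM (2) and cathelicidin (2). Trypsin and olfactory receptor genes, which are not immune genes, make up 23 of the 87. The families were picked after the gene names were seen, and no comparison with other peaks was made. In 84 of the 87 the liver peak lacked a taurine counterpart, and most regions were named only through the list of such peaks, so the count depends on which regions had a name. Reads aligning to several places were shared among them by the authors' peak caller, so peaks in near-identical gene copies cannot be placed with certainty in 1 copy.

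The distance to the nearest hypothalamus peak had a median of 7.21 kb (order-statistic interval 5.53 to 10.3 kb) and reached 560 kb, whereas muscle peaks absent from both other lists had a median of 7.88 kb (7.56 to 8.20 kb). The 442 regions were spread more at both ends. Within 1 kb of a hypothalamus peak lay 87 of them (19.7%, Wilson interval 16.2 to 23.6), against 11.5% (10.9 to 12.1) of the 10681 peaks of muscle alone. Over 100 kb away lay 40 (9.05%, 6.72 to 12.1), against 3.81% (3.46 to 4.19). Neighbours in a stretch were counted separately and the intervals treat them as independent. The median distance was 205852 bp for the 7 regions by NOTCH4 and 102781 bp for the 10 by KIR3DS1 and KIR3DL2. For the 87 near ones the hypothalamus peak had a median summit of 4.78, the region 4.2 in muscle and 4.23 in liver.

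**Figure D5:**
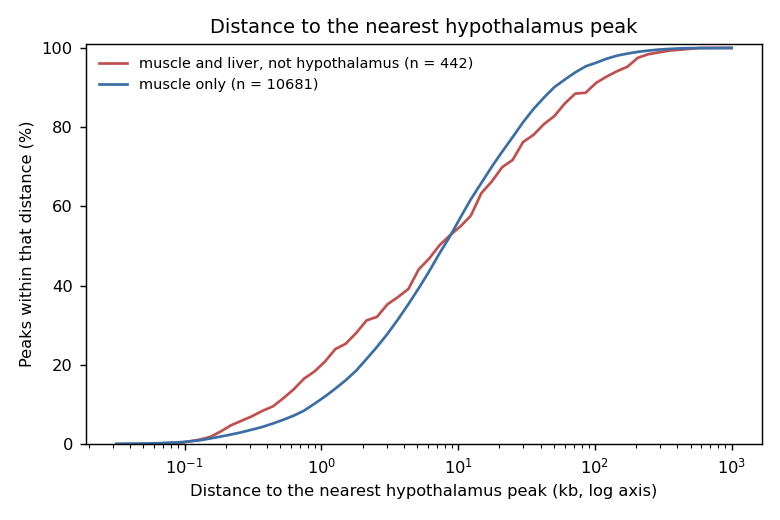
Cumulative share of peaks (%) by distance to the nearest hypothalamus peak (kb, log axis) for the 442 regions and the 10681 muscle peaks without liver or hypothalamus overlap. The curve of the 442 lies above at 1 kb (19.7% against 11.5%) and below at 100 kb.

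Gene positions and features were known in full for liver peaks on chromosomes 1 to 3 and on chromosome 4 up to 112.8 Mb. There, 46 of 56 liver peaks shared with muscle and not hypothalamus were intergenic (82.1%, Wilson interval 70.2 to 90), against 428 of 1468 open in all 3 tissues (29.2%, 26.9 to 31.5). Only 3 of the 56 lay within 3 kb of a transcription start site (5.36%, 1.84 to 14.6), against 949 of 1468 (64.6%, 62.2 to 67.1). For liver peaks shared with hypothalamus and not muscle the share was 30.7% (23.0 to 39.7, n = 114), and for liver alone it was 17.4% (11 to 26.4, n = 92). Liver peaks shared with muscle and not hypothalamus were therefore the least often at start sites of the 4 liver classes in point estimate. Their interval overlapped that of liver alone. The area also holds the chromosome 4 stretches by LOC780933 (16 regions) and IL6 (4 regions), all annotated as intergenic. The intervals treat such neighbours as independent. The share depended on which peaks were used: with equal numbers of peaks per list the share among regions chosen in the same way was 32.3% of 124.

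Over the whole genome 331 regions had an annotation and 111 did not, and 274 of the 331 were annotated only through the authors' list of liver peaks lacking a taurine counterpart. Of the 331, 231 were intergenic, 60 intronic, 13 exonic and 20 at a promoter. These counts depend on that list and were not compared with other peaks, so they do not characterise the regions. Besides those above, promoters included CLEC1A, a C-type lectin receptor gene (summits 5.39 in muscle and 3.83 in liver), and SNX33, a sorting nexin gene (6.01 and 3.67). IFI27, an interferon-induced gene, had a promoter region at 5.79 and 3.49. An intronic region with SLC10A1, the hepatic sodium-taurocholate cotransporter gene, as nearest gene had 6.0 in muscle and 3.30 in liver. Its percentile was higher in muscle than in liver. A neighbouring pair lay 56.9 and 57.7 kb from HJV, hemojuvelin, an iron regulator expressed in skeletal muscle and liver, with muscle summits of 4.63 and 4.71 over the same liver peak of 5.10. These were named after their values were seen.

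The authors had listed liver peaks of these heifers that overlapped no liver peak published for Hereford males, a Bos taurus breed, and on chromosomes 1 to 29 that list was read in full. It held 10.4% of liver peaks within the limits. It held the liver peak of 307 of the 442 regions (69.5%, Wilson interval 65 to 73.6). By class the share was 4.43% of liver peaks open in all 3 tissues (4.02 to 4.89), 14.8% with hypothalamus alone (12.3 to 17.6), 47.9% in liver alone (44.1 to 51.8) and 69.8% with muscle alone (65.3 to 74.0). The median summits of these classes were 4.81, 3.84, 3.74 and 3.89 in the same order. Sex, library preparation and peak calling also differed between the sources of the lists, and the part of summit height and of these differences in the result was not tested.

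Within the 442, the share on the list was 82.0% in stretches (76.1 to 86.7, n = 200) and 53.4% among single regions (46.0 to 60.6, n = 178). Of the 23 regions with a muscle summit of at least 7, 5 were on the list. The 135 regions not on it had a median liver summit of 3.71, against 4.14 for the 307 on it, and a median muscle AUC of 420 against 342. Of the 47 regions under 200 bp, 46 were on the list.

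Genes of metabolism and of cell identity could be followed for few genes only. Of 273 genes in 11 lists, covering glucose and glycogen, fatty acid oxidation, glucocorticoid response, the circadian clock, endothelium, leukocytes, fibroblasts, body position, skeletal muscle, hepatocytes and neural cells, only 33 had a start site in the annotation used here. None of the 33 had a region within 50 kb, which is too few genes to say whether such genes were rarer there than others. FOXO3, a transcription factor restrained by insulin signalling, was the named nearest gene of 1 region, at chr9:41476725-41476909, 143 kb from its start site (summits 3.65 and 4.02). The neighbouring region at chr9:41499481-41500103 (7.74 in muscle and 3.83 in liver) had no gene named in the annotation used here. Of 20 genes singled out in the study, 4 had a known start site, and none had a region within 50 kb.

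The labelled tissues were checked on the same few genes. A muscle peak lay within 3 kb of the start sites of CHRNA1, MYOG and DES among the 4 located muscle genes, whereas MSTN had none. A liver peak lay by FGG and APOA2 among the 4 located hepatocyte genes but not by AHSG or TF. Hypothalamus peaks lay by OLIG1 and SOX2, both of the located neural genes. They also lay by DES and by 3 of the 4 hepatocyte genes (AHSG, APOA2 and TF), and a muscle peak lay by APOA2, so the hepatocyte genes did not single out the liver list. CD5L, the 1 located macrophage gene, had no peak within 3 kb in any list, and the endothelial ERG had 1 in muscle only, so the cell types behind the regions could not be read from these markers.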

How the data were processed

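ATAC-seq peaks of hypothalamus, liver and muscle were analyzed from 3 deposited lists, 1 per tissue. Per the labels and methods, HISAT2 placed the reads on ARS-UCD1.2, keeping multiple alignments, and Genrich 0.6.1 was the authors' peak caller. PCR duplicates and the mitochondrial chromosome were removed, reads with several alignments were given fractional weights, and p-values were combined over the 3 heifers. The deposited signal is the AUC of significance over a peak, and the deposited −log10 p is that of the summit, neither adjusted for multiple tests nor scaled between tissues. The deposited score and the column of adjusted values were not used. The lists hold no depth, and the libraries' mapping statistics were not used here.

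The regions, gene lists and rule for named genes were chosen with earlier results of these data known. Overlaps were made with bedtools 2.31.1 (1 bp), in python 3.11.15 with pandas 2.3.3, numpy 2.4.6, scipy 1.17.1 and matplotlib 3.10.9, and the code was tested on simulated lists. Where several liver peaks overlapped, the one with the highest summit was used (11 regions). Percentiles were taken within each whole list. Starts are printed from 1. Shares carry Wilson 95% intervals and medians carry 95% binomial order-statistic intervals. No test between tissues was made, since no list holds a value for a single heifer.

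Named are the genes nearest to the 10 regions with the highest lower summit, the 5 largest AUC in each tissue, the 5 regions most above in each tissue by percentile, the 5 stretches with most regions, up to 4 regions per gene list within 50 kb, and genes the study names with a region within 50 kb. Features and nearest genes are the authors' (UCSC bosTau9 RefSeq genes), joined by peak name, and distances to start sites were computed from the gene coordinates there to the nearest edge of the muscle peak. Feature and nearest gene are separate fields, so an exon or intron may belong to another gene than the nearest. In all but 9 annotated regions both were those of the liver peak. No genome of this build was used here, so motifs, GC content and sequences were not analyzed.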

Additional observations from a re-analysis of the deposited data

How the results depend on the processing

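All 62 alternative values were planned, and 33 stayed within the 95% interval of the reported value or, for counts, within 1.5 times. Requiring a summit of at least 5 in every list gave 91 regions (20 of them among the 442), with median summits of 5.58 in muscle and 5.85 in liver, AUC of 679 and 894, lengths of 352 and 399 bp, liver above muscle in 85.7%, and 0% of 18 near a start site. A summit of 5 ranks higher in the liver list (median 5.07) than in the muscle list (median 5.35), so the 85.7% does not rank the tissues. Taking the 11359 strongest peaks of each list gave 718 regions (39 of them among the 442). Their summits were 7.01 and 4.51, with liver above in 14.9%. Their distance to hypothalamus was 37140 bp, and 32.3% of 124 lay near a start site. This cut removed weak muscle and hypothalamus peaks but no liver peak on the chromosomes used. As percentiles remained those of the whole lists, it lowers the 14.9% by construction, and that share does not rank the tissues. Once weak muscle and hypothalamus peaks are left out, the class is thus largely made of other regions. With no limit on the start there were 690 regions, with summits of 4.21 and 4.21, liver above in 65.1% and a distance of 3986 bp. Adding X moved the muscle summit to 3.92 and the distance to 5196 bp. Counting hypothalamus peaks within 1 kb as overlapping moved the distance to 13297 bp. With 1-to-1 pairs only, the liver AUC was 349.8 and the liver length 434.5 bp. AUC per bp was 0.847 in muscle, and ranking by it gave liver above in 51.4%. A start site was covered in 1.75% of 57 regions. The gene lists gave 1 region by nearest gene and 0 within 50 kb. The causes of these shifts were not tested, except that fewer peaks were used by construction under the stricter limits, in every list or in muscle and hypothalamus only. No paired analysis was possible because each list is a consensus over the heifers, and for the same reason no replicate could be left out. Alternatives on motifs and GC content were not run, as no genome of this build was used.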

Other observations

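Outside the limits on position, muscle peaks that overlapped liver and not hypothalamus were a larger part of the muscle list. On the first Mb of chromosomes 1 to 29 they were 248 of 944 muscle peaks (26.3%, Wilson 95% interval 23.6 to 29.2), with median summits of 4.46 in muscle and 4.76 in liver. On X they were 209 of 985 (21.2%, 18.8 to 23.9), with medians of 3.74 and 3.95. On scaffolds not placed on a chromosome they were 2591 of 9621 (26.9%, 26.1 to 27.8), spread over 682 scaffolds, with medians of 4.54 and 4.80 and a highest liver summit of 20.8. Of the deposited peaks, 46.9% of the liver list lay within the limits, against 71.2% of the muscle list and 86.8% of the hypothalamus list.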
